A study of Mus musculus with 4 samples.

Results

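A set of 10 genes known for rising in reactive astrocytes (*Gfap*, *Vim*, *Serpina3n*, *C4b*, *Lcn2*, *Cd44*, *Stat3*, *Osmr*, *Aqp4* and *S100a6*) were followed in single-nucleus RNA of the mouse cortex and hippocampus. They were taken by symbol from the list of known reactive astrocyte genes and are 10 of 32286 features counted. They were not ranked by a measured value, but earlier results of these data were known when they were chosen. The 4 libraries came from 5-week-old mice, 1 mouse per library. All mice carried the floxed *Sel1L* allele on both chromosomes. Of these, 2 libraries are labelled Sel1L flox/flox, the label for that allele without Cre, though 1 of them held Cre UMIs (given below). The other 2 are labelled Sel1L Syn-Cre, in which Cre recombinase under the neuronal Synapsin I promoter deletes *Sel1L* in part of the neurons and not in astrocytes. The study found SEL1L protein missing from some cortical neurons and from nearly all neurons of hippocampal CA3 and dentate gyrus (DG). In CA1 it was mostly kept. *Sel1L* encodes a component of the machinery that removes misfolded proteins from the endoplasmic reticulum.

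Astrocytes supply neurons with metabolites, clear glutamate and potassium, and wrap blood vessels with their endfeet. After injury, infection or neurodegeneration they become reactive: they enlarge their intermediate filament network, change adhesion and water handling, and secrete acute-phase and complement proteins. A well-known route to this state runs from cytokines of the interleukin-6 family through gp130 receptors and the kinase JAK to STAT3, a transcription factor that binds the genes it turns on. *Gfap* and *Vim* encode filament proteins, *Cd44* a receptor for hyaluronan and *S100a6* a small calcium-binding protein. *Aqp4* encodes the water channel of the endfeet. *Serpina3n*, *C4b* and *Lcn2* encode secreted proteins (a protease inhibitor, a complement component and the iron-siderophore carrier lipocalin-2). *Osmr* encodes the oncostatin M receptor, which signals through *Stat3*.

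The libraries held 7366 to 12599 nuclei, and 6801 to 11105 were kept, with medians of 7264 to 8411 unique molecular identifiers (UMIs, each standing for 1 captured RNA molecule) per nucleus. Any pair of libraries shared 10 to 34 barcodes. *Sel1l* did not follow the labels as a deleted gene would over whole libraries: it was at 97.1 and 90.1 CPM (UMIs of a gene, scaled to the same total of UMIs in every sum of nuclei) in the libraries labelled Sel1L flox/flox and at 155 and 128 CPM in those labelled Sel1L Syn-Cre. The 3′ reads were not tied to the deleted part of the gene, so these values do not check the deletion. The Cre transgene had 415 UMIs in the library labelled Sel1L flox/flox replicate 1, 0 in replicate 2, and 234 and 217 in the 2 libraries labelled Sel1L Syn-Cre. Cre thus did not follow the labels in 1 library, and values without that library are given below for the members tested. In astrocyte-like nuclei *Sel1l* was at 93.5 and 69.9 CPM in Sel1L flox/flox and at 91.4 and 76.3 CPM in Sel1L Syn-Cre, a log2 difference of 0.05 with an adjusted p of 0.969 in edgeR. Only 2 Cre UMIs fell in astrocyte-like nuclei of Sel1L flox/flox replicate 1 and 2 in those of Sel1L Syn-Cre replicate 1.

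Nuclei were named astrocyte-like from 10 markers that left the members out (among them *Slc1a2*, *Gja1* and *Aldoc*), all of which had UMIs in every library. The class held 432 and 219 nuclei from Sel1L flox/flox and 691 and 251 from Sel1L Syn-Cre, 1593 in all, with 744201 to 2429584 UMIs per library. Their summed marker level was 21168 to 23112 CPM in the 4 libraries. Markers of other cells had UMIs in the same sums. The highest of their lists was that of DG granule neurons, at 1739 and 1453 CPM in Sel1L flox/flox and 1466 and 1333 CPM in Sel1L Syn-Cre. Only 3 of its 5 markers had UMIs in every library, and how far the sum came from granule neurons was not tested. The 6 neuron markers summed to 457 to 814 CPM and the 6 oligodendrocyte markers to 319 to 826 CPM. The 5 immature oligodendrocyte markers, 3 of them with UMIs in every library, summed to 626 to 704 CPM. How far this sum came from such cells was not tested either. The labels overlapped in all of these lists. The 6 endothelial markers were at 7.62 and 8.06 CPM in Sel1L flox/flox and at 13.2 and 27.9 CPM in Sel1L Syn-Cre, and the 4 choroid plexus markers at 199 and 60.5 against 247 and 375 CPM. The 3 markers of white matter or pial astrocytes, which are rich in *Gfap*, were at 155 and 113 against 156 and 160 CPM. These 3 lists did not overlap between labels, nor did some neuron lists and the OPC list, and their part in the results was not tested. Lack of overlap was common among single genes. Both Sel1L Syn-Cre libraries were above both Sel1L flox/flox libraries in 19.5% of the genes tested in this class and below in 21.4%.

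STAT proteins bind the letters TTC and GAA with 3 or 4 letters of any kind between them, a motif that reads the same on both strands. The members' promoters (250 bases before to 50 after the start of the gene, RefSeq, GRCm38.p6) were searched for them because STAT3 is itself a member, and sequences were at hand for 8 of the 10 genes. The RefSeq starts of *Gfap* and *Lcn2* lie inside the longer GENCODE spans of these genes given below. *Gfap* held both forms, *Lcn2* and *Cd44* held the longer one, and *Vim*, *Serpina3n*, *Stat3*, *Osmr* and *S100a6* held neither in this window. Of all 32851 promoters of the same length, 8.30% held the shorter and 6.95% the longer form, so a match is a description and not a sign of binding. The windows around the matches are given 5′ to 3′ with the match in capitals. They lie on the minus strand at chr11:102897184-102897212 and chr11:102897296-102897325 for *Gfap*, at chr2:32387876-32387905 for *Lcn2* and at chr2:102901857-102901886 for *Cd44*.
Gfap, at the RefSeq start: atgggggtgcTTCCAGGAAgtcaggggca
Gfap, upstream: caggctggtgTTCCCAAGAAagccttgact
Lcn2: tgccaagtatTTCAACAGAAtgtactggca
Cd44: cttcctcagcTTCCTGGGAAaaccagtctt

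No member passed the test in astrocyte-like nuclei, where 0.722% of the 11085 genes tested did (80 genes, edgeR quasi-likelihood test, Benjamini-Hochberg adjusted p under 0.05). Of the 10 members, 6 had enough counts to be tested (*Gfap*, *Vim*, *C4b*, *Stat3*, *Aqp4* and *S100a6*). At an unadjusted p under 0.05 there were 2, *Gfap* and *C4b*, against 11.1% of all genes. Both had higher estimates in Sel1L Syn-Cre, as 5.94% of all genes did at that p. DESeq2 had 0 of the 6 at an unadjusted p under 0.05, and none passed among the 3 it gave an adjusted p (*Gfap*, *Stat3* and *Aqp4*). In 4 of the 6, *Gfap*, *Vim*, *C4b* and *Aqp4*, both Sel1L Syn-Cre libraries were above both Sel1L flox/flox libraries in CPM, which is 66.7% of the members tested against 19.5% of all genes tested. In 1 of the 6, *S100a6*, both were below, as in 21.4% of all genes tested. Given the same mix of astrocyte-like subclusters in every library (described below), *C4b* and *S100a6* stayed apart by label, while *Gfap*, *Vim* and *Aqp4* overlapped. The share of all genes apart by label in that mix was not computed, so these members have no background there. The median log2 difference was 0.24 over the 6 members and -0.01 over all genes tested. The exact permutation test of a single value cannot go below p = 0.333 with 2 libraries against 2.

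**Figure D1:**
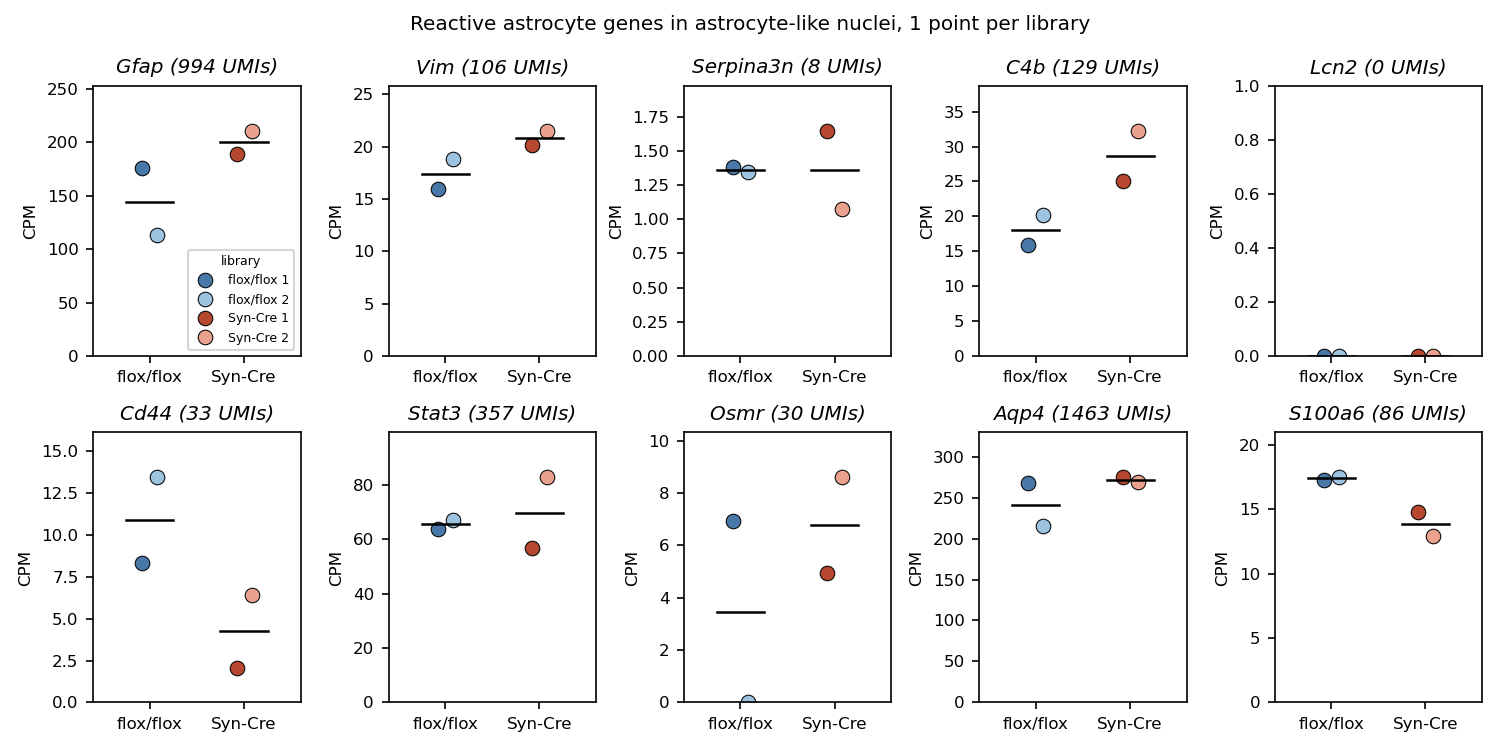
CPM of each gene (vertical axis, starting at 0) in the summed astrocyte-like nuclei, with 1 point per library, the mean of each label as a line and the gene's UMIs over the 4 libraries in its title. *Gfap* had 994 UMIs and stood at 113 CPM in Sel1L flox/flox replicate 2 against 176 to 211 in the other 3 libraries, *C4b* did not overlap between labels, and *Lcn2* had no UMI.

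*Gfap*, the main filament protein of astrocytes (chr11:102887336-102900912, minus strand), was at 176 and 113 CPM in the astrocyte-like nuclei of Sel1L flox/flox and at 189 and 211 CPM in those of Sel1L Syn-Cre. Of the 4 libraries, Sel1L flox/flox replicate 2 lay below the other 3, which were close together. The means were 144 ± 44.6 and 199.96 ± 15.02 CPM (SD, n = 2 each), and the log2 difference was 0.45 ± 0.20 (SE), a fold of 1.36 with a 95% interval of 1.01 to 1.85 and an adjusted p of 0.444 in edgeR. Without Sel1L flox/flox replicate 2 the log2 difference was 0.21, and without Sel1L flox/flox replicate 1, the library with Cre UMIs, it was 0.82, with adjusted p-values of 0.834 and 0.298. The share of nuclei with a *Gfap* UMI moved the same way. After each nucleus was thinned to 2000 UMIs, it was 23.8% and 11.2% in Sel1L flox/flox and 24.8% and 27.6% in Sel1L Syn-Cre (difference 8.75 points, two-sided exact permutation p = 0.333). Thinning left out 64, 30, 72 and 30 shallower nuclei in that order of libraries. Unthinned, the shares were 33.6%, 16.9%, 34.4% and 39.8%.

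*Gfap* UMIs were unevenly spread over nuclei. The tenth of astrocyte-like nuclei with the most *Gfap* held 57.1%, 82.1%, 57.2% and 53.6% of its UMIs in the 4 libraries, Sel1L flox/flox first. Sel1L flox/flox replicate 2 was again the library apart, at 82.1%. It also had the lowest share of nuclei with a *Gfap* UMI (16.9%), on which this value depends. The same library had 0 Cre UMIs, and a link was not tested. The highest single nucleus had 9, 18, 17 and 12 UMIs, and nuclei with 5 or more were 1.39%, 2.28%, 2.32% and 1.99%. Neuron-like nuclei were low in *Gfap*. They held 0.612 to 1.15 CPM, and 0.149% to 0.262% of them had a UMI after thinning to the same depth. Whether these UMIs came from free RNA was not tested. Of all *Gfap* UMIs in kept nuclei, 68.8% lay in astrocyte-like nuclei, which had 1.83% of all UMIs. Among classes with at least 20 nuclei in every library, endothelial-like nuclei came next with a mean of 47.9 CPM, below the astrocyte-like range, and neuroblast-like nuclei followed with 6.63 CPM. The few ependymal-like nuclei held *Gfap* too, at 248 CPM in the 10 nuclei of Sel1L flox/flox replicate 1 and at 88.2 and 313 CPM in the 14 and 5 nuclei of Sel1L Syn-Cre.

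*Vim*, a filament protein that pairs with GFAP (chr2:13573927-13582826, plus strand), was at 15.9 and 18.8 CPM in Sel1L flox/flox and at 20.2 and 21.5 CPM in Sel1L Syn-Cre. The labels did not overlap, but the 4 values lay within a narrow range and rested on 106 UMIs. The log2 difference was 0.30 ± 0.32 (SE), with a 95% interval in fold of 0.758 to 1.99 (edgeR, adjusted p = 0.815), and without Sel1L flox/flox replicate 1 it was 0.14. Among kept nuclei, those named astrocyte-like did not hold the most *Vim* UMIs. Endothelial-like nuclei had 149 and 434 CPM in Sel1L flox/flox and 338 and 323 CPM in Sel1L Syn-Cre, and held 31.0% of its UMIs against 16.96% in astrocyte-like nuclei. The endothelial markers that were higher in the Sel1L Syn-Cre astrocyte-like sums were given above. Where astrocyte-like nuclei had *Vim*, they often had *Gfap* too. Of those with a *Vim* UMI, 76.5%, 30.8%, 66.0% and 66.7% had a *Gfap* UMI, against 33.6%, 16.9%, 34.4% and 39.8% of all astrocyte-like nuclei, and nuclei of high depth enter both shares.

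*Cd44*, the hyaluronan receptor (chr2:102811141-102901665, minus strand), went the other way. It had 12 and 10 UMIs in the astrocyte-like nuclei of Sel1L flox/flox and 5 and 6 in those of Sel1L Syn-Cre, or 8.31 and 13.4 against 2.06 and 6.45 CPM. The labels did not overlap, at counts too low for the filter of the main test. Tested without a filter, the log2 difference was -1.52 ± 0.59 (SE) with an adjusted p of 0.256 in edgeR. Of 33 *Cd44* UMIs in the class, 12 came from the 2 Sel1L flox/flox libraries in 1 subcluster, described below. In the rest of the class the labels overlapped in *Cd44* CPM. Excitatory neuron-like nuclei held 71.2% of all *Cd44* UMIs, at a mean of 2.72 CPM.

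*S100a6* (chr3:90612882-90624181, plus strand) was at 17.3 and 17.5 CPM in Sel1L flox/flox and at 14.8 and 12.9 CPM in Sel1L Syn-Cre. Both Sel1L Syn-Cre libraries were lower, by little, and the 4 values rested on 86 UMIs. The log2 difference was -0.27 ± 0.35 (SE), with a fold interval of 0.488 to 1.41 (edgeR, adjusted p = 0.854), and without Sel1L flox/flox replicate 1 the log2 difference was -0.29. Mean levels were 24.7 CPM in endothelial-like nuclei, where single libraries ran from 0 to 60.3 CPM, 20.1 CPM in OPC-like nuclei (oligodendrocyte precursor cells) and 15.6 CPM in astrocyte-like nuclei, and neighbours in this order overlapped.

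*Aqp4*, the endfoot water channel (chromosome 18, minus strand), was the member with the most UMIs in the class, 1463. It was at 267 and 215 CPM in Sel1L flox/flox and at 275 and 269 CPM in Sel1L Syn-Cre. As with *Gfap*, Sel1L flox/flox replicate 2 was the low library and the other 3 were alike. The log2 difference was 0.18 ± 0.17 (SE) and its 95% interval ran from a fold of 0.873 to 1.46 (edgeR, adjusted p = 0.785). Without Sel1L flox/flox replicate 1 the log2 difference was 0.34. The thinned share of nuclei with a UMI was 34.6% and 30.1% against 34.7% and 31.8% and overlapped between labels. Of all *Aqp4* UMIs, 71.6% lay in astrocyte-like nuclei, with a mean of 256 CPM against 29.6 CPM in endothelial-like and 16.8 CPM in OPC-like nuclei, the next of the classes with at least 20 nuclei in every library. Ependymal-like nuclei, fewer than that, had *Aqp4* at 124, 247 and 327 CPM in the 3 libraries that held any.

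*C4b*, complement component 4 (chr17:34728380-34743882, minus strand), had the highest estimate among the members. It was at 15.9 and 20.2 CPM in Sel1L flox/flox and at 25.1 and 32.2 CPM in Sel1L Syn-Cre, from 23, 15, 61 and 30 UMIs. Both Sel1L Syn-Cre libraries were above both Sel1L flox/flox libraries. The means were 18.04 ± 2.99 and 28.7 ± 5.04 CPM (SD, n = 2 each), with a log2 difference of 0.68 ± 0.30 (SE), a fold of 1.601 and a 95% interval of 1.01 to 2.53. The unadjusted p was 0.0452 and the adjusted p 0.443 in edgeR. Without Sel1L flox/flox replicate 1 the log2 difference was 0.47 with an adjusted p of 0.841. Thinned shares of nuclei with a UMI were 2.26% and 4.35% against 5.12% and 5.82% (exact permutation p = 0.333). Astrocyte-like nuclei held 57.1% of all *C4b* UMIs, and neuron-like nuclei had at most 0.0945 CPM. Oligodendrocyte-like nuclei had 1.15 and 2.53 CPM in Sel1L flox/flox and 1.78 and 12.8 CPM in Sel1L Syn-Cre, so 1 library stood apart there. *C4a*, a near-identical copy with which *C4b* can share reads, had 3 UMIs in astrocyte-like nuclei.

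The other secreted members were at the limit of detection. *Serpina3n* (chr12:104406729-104414329, plus strand), a gene of a family of close copies, had 2 and 1 UMIs in Sel1L flox/flox and 4 and 1 in Sel1L Syn-Cre, or 1.07 to 1.65 CPM. Over all neuron classes it was lower, at 0.501 to 0.631 CPM, but some neuron classes had higher means. DG granule neuron-like nuclei held 31.4% of its 175 UMIs in kept nuclei and CA1 pyramidal neuron-like nuclei 18.3%, at means of 3.05 and 2.06 CPM. CA3 pyramidal neuron-like nuclei, at 0.992 to 1.72 CPM, and OPC-like nuclei, at 0.884 to 3.59 CPM, overlapped with astrocyte-like nuclei. *Lcn2* (chr2:32384633-32388252, minus strand) had no UMI in any astrocyte-like nucleus. With 0 counts, a share of up to 0.694% and 1.37% of nuclei in Sel1L flox/flox and of 0.434% and 1.195% in Sel1L Syn-Cre could have had a UMI (3 counts, for counting error only). All kept nuclei of the 4 libraries together had 21 *Lcn2* UMIs. Of these, 9 were in endothelial-like nuclei (1 and 0 in Sel1L flox/flox, 3 and 5 in Sel1L Syn-Cre) and 6 in microglia-like nuclei, all from 1 nucleus of Sel1L Syn-Cre replicate 1.

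The receptor *Osmr* (chr15:6813577-6874969, minus strand) had 10 and 0 UMIs in Sel1L flox/flox and 12 and 8 in Sel1L Syn-Cre. Sel1L flox/flox replicate 2 could have held up to 4.03 CPM at 3 counts, and the other libraries had 4.94 to 8.60 CPM. Tested without a filter, the log2 difference was 0.52 ± 0.64 (SE, adjusted p = 0.892 in edgeR). Vascular nuclei held more of it. Endothelial-like nuclei had a mean of 109 CPM and did not overlap with astrocyte-like nuclei, and the 46, 8, 40 and 18 pericyte- or vascular fibroblast-like nuclei had 197 and 73.98 CPM in Sel1L flox/flox and 114 and 198 CPM in Sel1L Syn-Cre. *Stat3* (chr11:100885098-100939540, minus strand, overlapping *Stat5a* on the other strand) was at 63.7 and 67.2 CPM in Sel1L flox/flox and at 56.8 and 82.7 CPM in Sel1L Syn-Cre. The labels overlapped, and the log2 difference was 0.06 ± 0.21 (SE), with a fold interval of 0.758 to 1.43 (edgeR, adjusted p = 0.959). Without Sel1L flox/flox replicate 1 it was 0.0043. Over the 14 classes *Stat3* ran from 8.46 CPM in CA1 pyramidal neuron-like to 139 CPM in microglia-like nuclei, and astrocyte-like nuclei came after microglia-, endothelial- and neuroblast-like nuclei in the order, each overlapping the next.

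**Figure D2:**
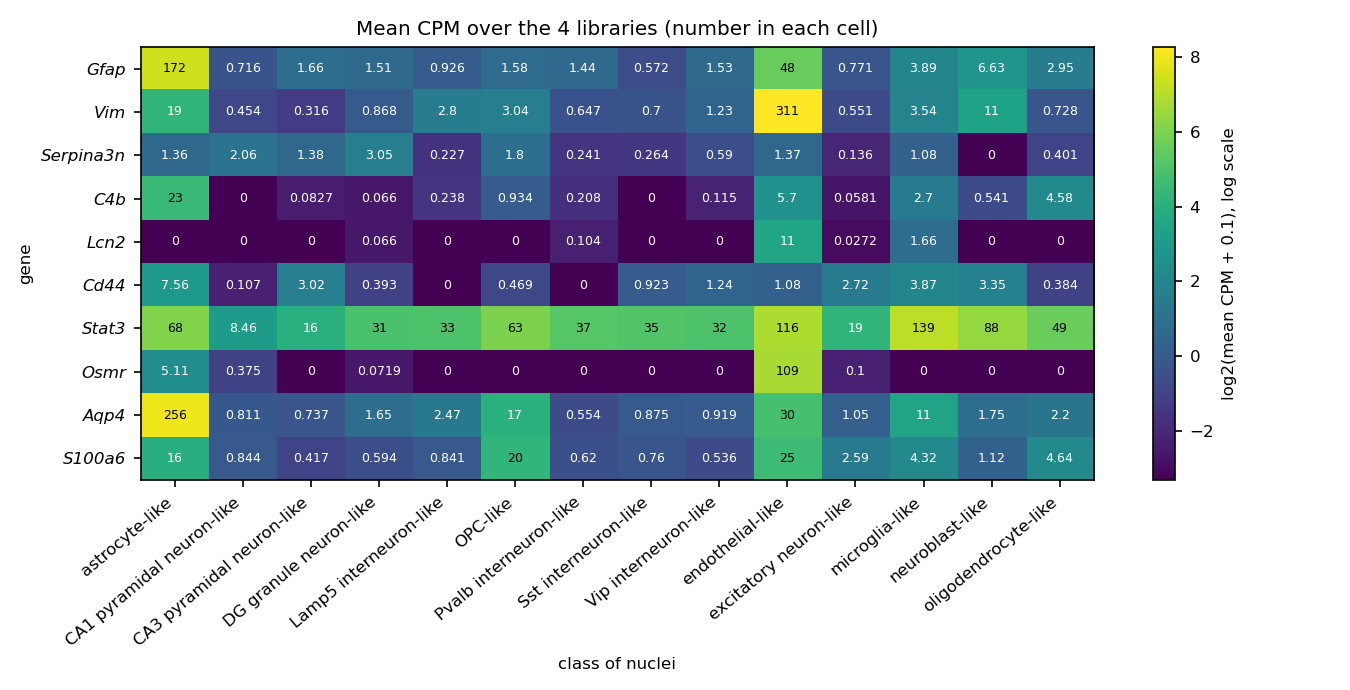
Mean CPM over the 4 libraries of each gene (rows) in each class of nuclei with at least 20 nuclei per library (columns), printed in the cell and coloured on a log scale. *Gfap*, *Aqp4* and *C4b* peaked in astrocyte-like nuclei, *Vim*, *Osmr* and *Lcn2* in endothelial-like nuclei, and *Stat3* was highest in microglia-like nuclei.

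Most astrocyte-like nuclei showed few of these transcripts at once. Of the 8 members other than *Stat3* and *Aqp4*, none was detected in 58.6% and 69.4% of nuclei in Sel1L flox/flox and in 57.6% and 51.4% in Sel1L Syn-Cre. At least 3 were detected in 1.85% and 1.83% against 2.46% and 2.39% of nuclei, which is 8, 4, 17 and 6 nuclei. These shares were not thinned, and median depths per nucleus differ between libraries.

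Astrocyte-like nuclei fell into 5 subclusters, found without the members and called by number here. Subcluster 3 (112 nuclei, led by *Myoc*, *Aqp4* and *Gfap*) had the highest *Gfap* and *Aqp4*: *Gfap* at 512 and 888 CPM in Sel1L flox/flox and at 651 and 610 CPM in Sel1L Syn-Cre, and *Aqp4* at 1001 and 826 against 951 and 870 CPM. Subcluster 2 (131 nuclei, led by *Thbs4* and *Tnc*) had *Gfap* at 344 and 439 against 252 and 356 CPM and pooled *C4b* of 78.6 CPM. Like subclusters 1, 3 and 4, it had no astrocyte marker among its 10 leading genes, and 9 of 10 markers were detected. It was also shallow, at 0.301 of the median depth of its libraries, and the naming rule therefore gave it no name of its own. It belongs to the class only through the larger cluster it was split from. Without it the log2 difference over the class was 0.53 for *Gfap* and 0.78 for *C4b*, with adjusted p-values of 0.362 and 0.447 in edgeR. In both subclusters the *Gfap* values of the labels overlapped. In the 2 large subclusters, 0 and 1, the low value was that of 1 library: *Gfap* was at 210 and 75.0 CPM against 201 and 210 CPM in subcluster 0, and at 94.5 and 25.0 against 78.9 and 96.2 CPM in subcluster 1, with Sel1L flox/flox replicate 2 as the low value each time. *C4b* in subcluster 0 was at 21.6 and 21.4 CPM in Sel1L flox/flox and at 20.1 and 46.2 CPM in Sel1L Syn-Cre, and in subcluster 1 at 2.999 and 4.54 against 11.9 and 9.62 CPM, from 2, 2, 11 and 3 UMIs. *Cd44* in subcluster 3 had 6 and 6 UMIs in Sel1L flox/flox and 0 and 0 in Sel1L Syn-Cre, although Sel1L Syn-Cre gave more nuclei there (26 and 12 against 55 and 19).

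**Figure D3:**
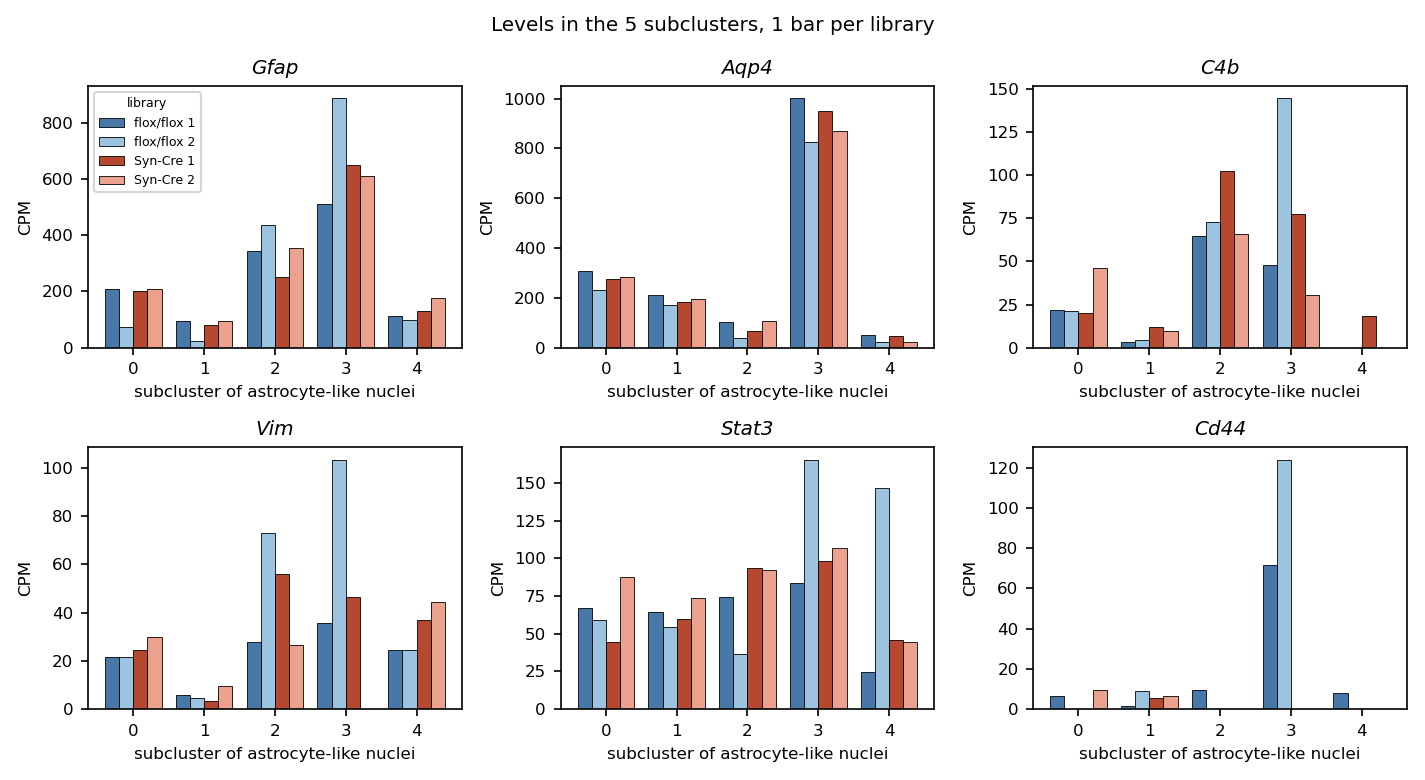
CPM (bars from 0) of 6 members in the 5 subclusters of astrocyte-like nuclei, 1 bar per library in the order Sel1L flox/flox 1 and 2, Sel1L Syn-Cre 1 and 2. *Gfap* and *Aqp4* were highest in subcluster 3 in every library, and the second *Gfap* bar, Sel1L flox/flox replicate 2, is the short one in subclusters 0 and 1.

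The subclusters did not make up equal parts of the libraries. Subcluster 0 was 37.3% and 31.5% of astrocyte-like nuclei in Sel1L flox/flox and 52.0% and 47.8% in Sel1L Syn-Cre, and subcluster 1 was 37.5% and 51.6% against 28.4% and 28.3%. *Gfap*, *Vim* and *C4b* were all higher in subcluster 0 than in subcluster 1, with pooled *Gfap* at 194 against 75.5 CPM. When each library was given the same mix of subclusters, the ratio of the mean CPM, Sel1L Syn-Cre over Sel1L flox/flox, went from 1.38 to 1.19 for *Gfap*, from 1.199 to 0.996 for *Vim*, from 1.59 to 1.29 for *C4b* and from 1.13 to 1.01 for *Aqp4*. Those 4 ratios were therefore smaller within a fixed mix, and the calculation has no test. In that mix the labels overlapped for *Gfap* (185 and 133 against 180 and 197 CPM), *Vim* and *Aqp4*. They stayed apart for *C4b*, at 16.8 and 24.7 CPM in Sel1L flox/flox against 25.3 and 28.1 CPM in Sel1L Syn-Cre. How many of all genes stay apart in that mix was not computed.

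Other classes showed how far the same genes moved outside astrocytes. Members could be tested in 26 pairs of member and class, and 0 passed the adjusted threshold in edgeR, nor any of the 23 to which DESeq2 gave an adjusted p. At an unadjusted p under 0.05 there were 5 of 26 in edgeR and 1 in DESeq2, where edgeR had from 6.51% of all genes in endothelial-like to 21.8% in *Sst* interneuron-like nuclei below it. In the other classes that hold one of the 5 it was 17.3% in *Pvalb* interneuron-like, 11.1% in oligodendrocyte-like, 12.2% in excitatory neuron-like and 13.3% in OPC-like nuclei. Of all genes tested, edgeR called from 0.00% in endothelial-like to 8.88% in *Sst* interneuron-like nuclei, with 0.00798% in CA1 pyramidal neuron-like, 0.0739% in CA3 pyramidal neuron-like, 0.0268% in *Vip* interneuron-like, 0.0841% in microglia-like, 0.581% in neuroblast-like, 0.466% in *Lamp5* interneuron-like, 3.93% in DG granule neuron-like, 0.327% in excitatory neuron-like, 4.73% in *Pvalb* interneuron-like, 3.93% in OPC-like and 1.00% in oligodendrocyte-like nuclei. *Stat3* gave 3 of the 5. In *Pvalb* interneuron-like nuclei it was at 26.1 and 33.3 CPM in Sel1L flox/flox and at 41.8 and 48.5 CPM in Sel1L Syn-Cre (log2 0.55 ± 0.19, edgeR adjusted p = 0.132). In *Sst* interneuron-like nuclei it was at 25.5 and 29.6 against 44.9 and 39.5 CPM (log2 0.55 ± 0.20, adjusted p = 0.103 in edgeR). In oligodendrocyte-like nuclei it was at 45.0 and 33.5 against 55.3 and 61.2 CPM (log2 0.52 ± 0.21, adjusted p = 0.370 in edgeR). With names made without integration *Stat3* passed in a class named *Pvalb* interneuron-like (edgeR adjusted p = 0.0472). No nuclei were named *Sst* interneuron-like in that setting, and this class held 546, 394, 396 and 368 nuclei, Sel1L flox/flox first. With integration the *Pvalb* class held 299, 220, 220 and 212 nuclei, so the pass cannot be assigned to *Pvalb* nuclei alone.

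*Vim* in excitatory neuron-like nuclei was near the floor, with the highest estimated fold. It had 13 and 9 UMIs in Sel1L flox/flox and 37 and 28 in Sel1L Syn-Cre, or 0.246 and 0.244 against 1.02 and 0.699 CPM. The log2 difference was 1.74 ± 0.42 (SE) with an adjusted p of 0.133 in edgeR. It passed with no filter on low counts (adjusted p = 0.00917 in edgeR), at a log2 difference of 1.74 ± 0.46 (SE). The estimate was alike and its SE no smaller than with the filter, so the pass does not stand for a larger difference. *Aqp4* in OPC-like nuclei, the fifth, was at 10.4 and 13.6 against 14.1 and 29.1 CPM (log2 0.84 ± 0.37, edgeR adjusted p = 0.296), with Sel1L Syn-Cre replicate 2 above the rest. Whether the genotype difference of a member itself differed between astrocyte-like nuclei and oligodendrocyte-, microglia- or excitatory neuron-like nuclei was tested as an interaction. Of 7, 6 and 9 members tested, 0 passed in each pair in edgeR, where 0.778%, 0.352% and 1.22% of genes passed. DESeq2 gave an adjusted p to 3, 6 and 3 of them and called 0. One member had an unadjusted p under 0.05 in edgeR, *Vim* against excitatory neuron-like nuclei (log2 difference of differences -1.44 ± 0.67, edgeR adjusted p = 0.540).

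**Figure D4:**
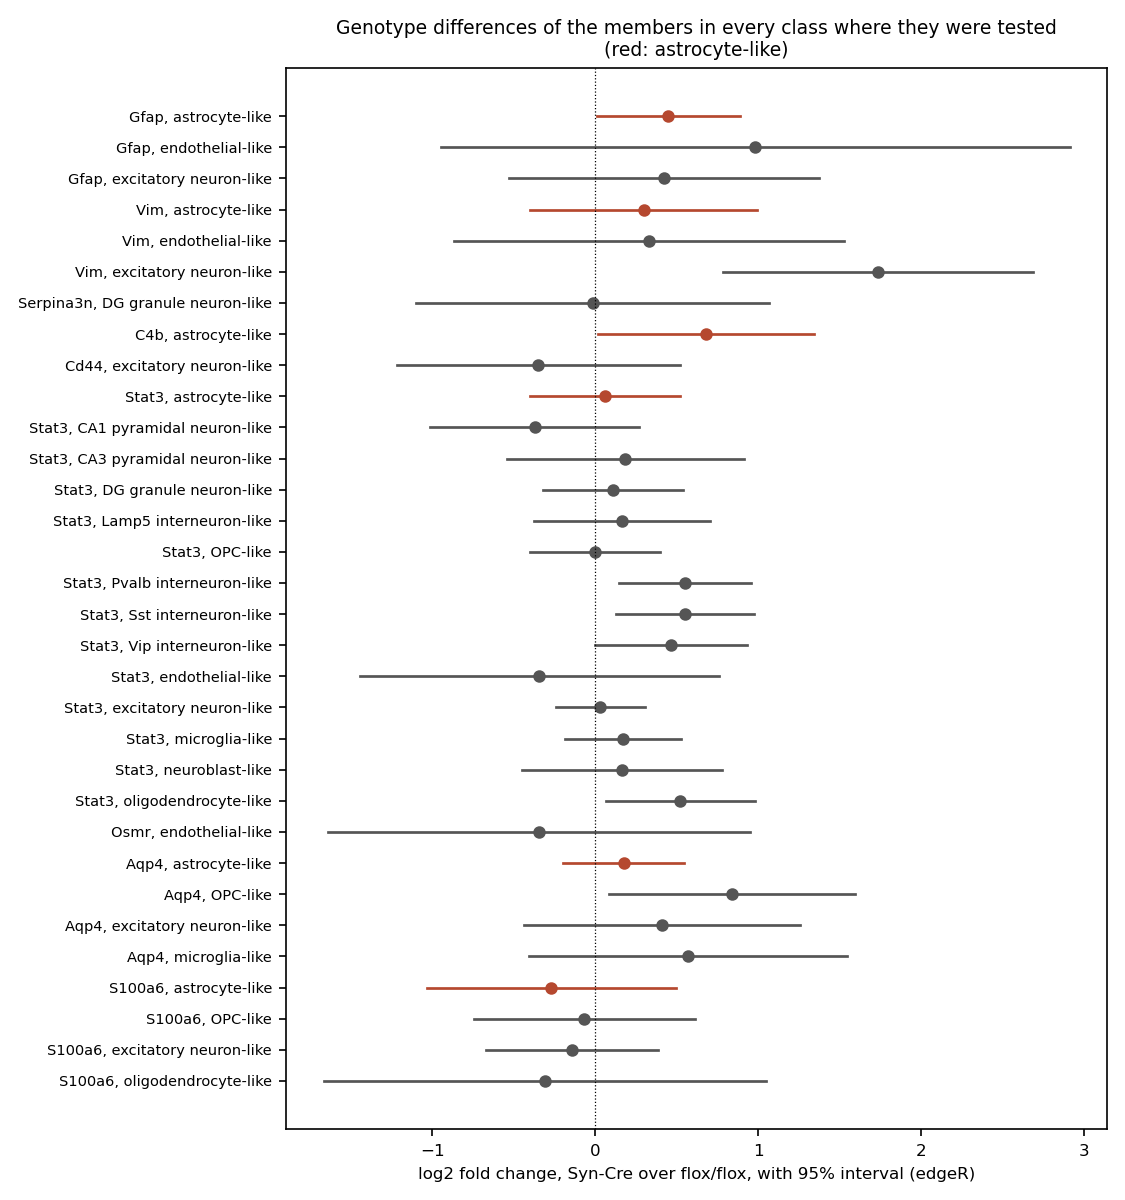
Log2 fold change of Sel1L Syn-Cre over Sel1L flox/flox (horizontal axis) with its 95% interval from edgeR, for each member in every class where it was tested, astrocyte-like nuclei in red. The intervals of *Gfap* and *C4b* in astrocyte-like nuclei begin just above 0, and *Vim* in excitatory neuron-like nuclei has the highest estimate.

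Other genes of the reactive state were read from fixed lists, where DESeq2, like edgeR, called 1 gene in all. Of 7 further pan-reactive genes, 1 could be tested, the sphingosine-1-phosphate receptor *S1pr3*, at 6.23 and 6.72 against 11.9 and 12.9 CPM (log2 0.95 ± 0.45, edgeR adjusted p = 0.463). *Steap4* had 0 UMIs, and the 9 UMIs of the chemokine *Cxcl10* were all in Sel1L Syn-Cre replicate 1. Of 12 genes linked to neuroinflammation, 2 could be tested and 1 passed. *Fkbp5*, a co-chaperone of steroid receptors and a textbook target of the glucocorticoid receptor, was at 14.5 and 22.8 CPM in Sel1L flox/flox and at 131 and 281 CPM in Sel1L Syn-Cre. All 4 libraries were well apart by label. The log2 difference was 3.49 ± 0.36 (SE), a fold of 11.3 (edgeR, adjusted p = 0.00130), and 3.11 without Sel1L flox/flox replicate 1 (adjusted p = 0.0104 in edgeR). Its neighbours on the list that define that state, such as *H2-D1*, *Serping1*, *Gbp2* and *Psmb8*, had 4 to 35 UMIs and were not tested. Of 12 genes linked to ischaemia, only *S100a10* could be tested (log2 0.08 ± 0.57, edgeR adjusted p = 0.979).

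**Figure D5:**
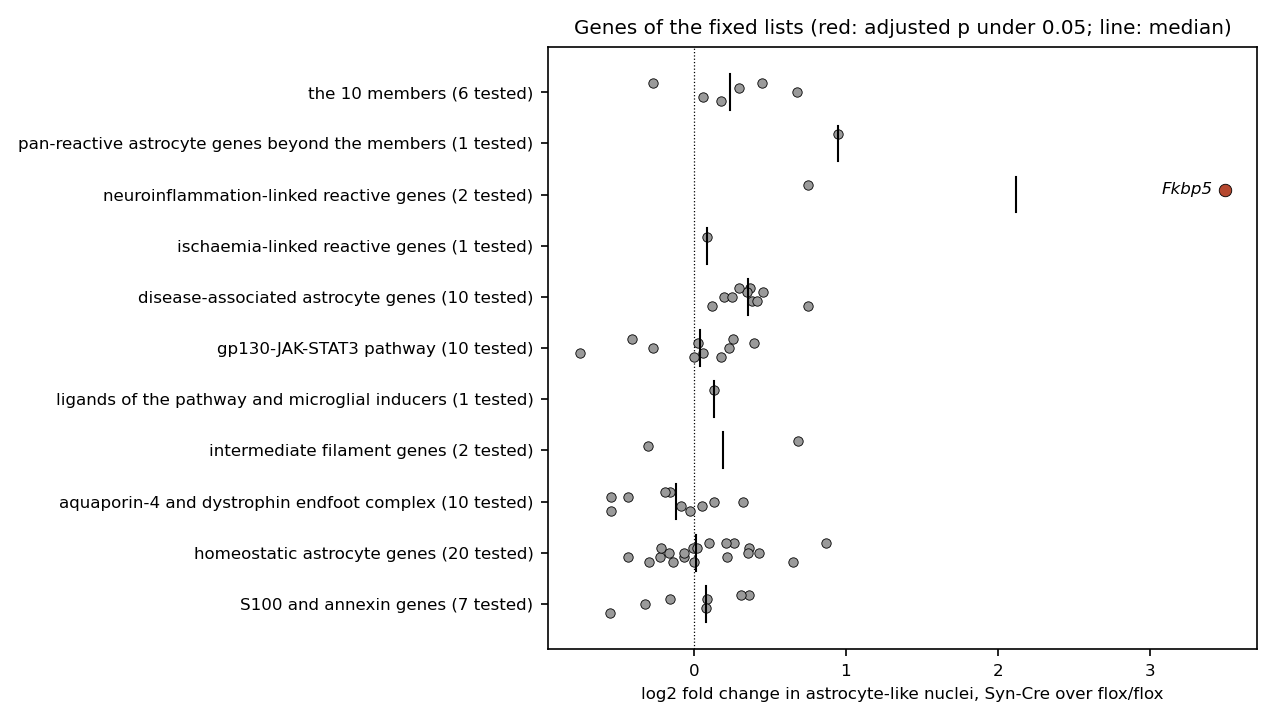
Log2 fold change in astrocyte-like nuclei (horizontal axis, Sel1L Syn-Cre over Sel1L flox/flox) of every gene tested in each fixed list (rows), the median as a line and genes past the threshold in red. *Fkbp5* is the 1 gene past the threshold, and the 10 disease-associated genes all lie above 0, as do 5436 of all 11085 genes tested.

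The 10 disease-associated astrocyte genes, among them the lipid carrier *Apoe* and the cathepsins *Ctsb*, *Ctsd* and *Ctsl*, were all tested and 0 passed in edgeR, with 2 at an unadjusted p under 0.05 (*Ctsl* and the protease inhibitor *Cst3*). All 10 estimates were above 0, with a median log2 difference of 0.36 against -0.01 over all genes tested. Of all 11085 genes tested, 5436 had estimates above 0. An unadjusted p under 0.05 was found for 11.1% of them in edgeR, the share to set beside each list here and below. *Cst3* was at 1177 and 1166 against 1478 and 1566 CPM, and *Ctsl* at 79.6 and 82.0 against 104 and 110 CPM. In the gp130, JAK and STAT3 pathway 10 of 13 genes were tested and 0 passed in edgeR, 7 with estimates above and 3 below 0 (median 0.04). The shared receptor *Il6st* was at 71.3 and 49.7 against 71.2 and 77.4 CPM, the kinase *Jak1* at 148 and 129 against 142 and 146 CPM, and *Socs3*, the feedback inhibitor that STAT3 turns on, had 3, 0, 4 and 0 UMIs. *Pias3*, an inhibitor of STAT3, had the one unadjusted p under 0.05, at 29.8 and 22.8 against 17.3 and 12.9 CPM (log2 -0.75 ± 0.32, edgeR adjusted p = 0.412).

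Of the ligands and microglial inducers, 1 of 12 had enough counts, *Tgfb2* (log2 0.13 ± 0.23, edgeR adjusted p = 0.902), and *Il6*, *Osm* and *Tnf* had 0 UMIs in astrocyte-like nuclei. None of the 9 complement genes beside *C4b* could be tested, and *C3* had 0 UMIs in the class. Of 5 intermediate filament genes, *Plec* (log2 0.69 ± 0.30, edgeR adjusted p = 0.439) and *Lmna* were tested, and *Nes* had 8 UMIs. The 10 genes of a list for the AQP4 and dystrophin complex of the endfeet were all tested and 0 passed in edgeR. Estimates were above 0 in 3 and below 0 in 7 (median -0.12). The 2 with an unadjusted p under 0.05 were *Utrn*, at 366 and 361 against 254 and 241 CPM (log2 -0.55 ± 0.17, edgeR adjusted p = 0.195), and the syntrophin *Sntb1*. *Kcnj10* is on this list and on the homeostatic list that follows. Of 20 homeostatic genes 0 passed in edgeR, with a median of 0.01 and 3 at an unadjusted p under 0.05, the connexins *Gja1* (log2 0.65 ± 0.17) and *Gjb6* (log2 0.87 ± 0.25) and the glutamine synthetase *Glul*, with edgeR adjusted p-values of 0.132, 0.169 and 0.409. Of 10 S100 and annexin genes 7 were tested and 0 passed in edgeR, and *S100b*, the 1 with an unadjusted p under 0.05, was at 75.5 and 101 against 63.8 and 49.4 CPM (log2 -0.55 ± 0.22, edgeR adjusted p = 0.375).

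The genes most like each member across cell classes were sought over 61 sums of a class in a library (17 classes) among 17115 genes, by Pearson's r of log2(CPM + 1). The sums of a library share its preparation and the sums of a class share cell identity, so r is a description. *Gfap* was most like *Gja1* (r = 0.910), *Gstm1* and *Clu*. *Aqp4* was most like *Slc9a3r1* (r = 0.883), *Glud1* and *Aldoc*. The closest gene to *C4b* was *Tprkb* (r = 0.809) and to *S100a6* *Lrp4* (r = 0.818). *Vim* was closest to ribosomal protein genes, *Rpl19* first (r = 0.897), *Stat3* to *Btbd7* (r = 0.879) and *Cd44* to *Lrrc75a* (r = 0.602), the loosest of the 7 matches. *Serpina3n*, *Osmr* and *Lcn2* had fewer than 200 UMIs and were not searched.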

How the data were processed

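Nuclei of 4 libraries were sorted by flow cytometry and sequenced with the 10x Genomics 3′ v3 chemistry. Per the submitters' processing notes, the authors used Cell Ranger 6.1.0 and GRCm38. The deposited values are raw UMI counts per feature and nucleus, not normalized. Strand settings are not given in the sources used here.

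From these counts, nuclei with more than 600 genes, under 5% mitochondrial UMIs and no top Scrublet score (5.89% to 10.1% per library) were kept, integrated in Seurat 5.3.0 (2000 features without the members, 17 dimensions, resolution 0.2) and clustered again within classes (0.4). Names came from fixed markers, and 3232 of 33304 kept nuclei stayed unnamed. Names were rebuilt here, and may differ from those of the study. UMIs summed per class and library were tested in edgeR 4.0.16 (TMM, filterByExpr, two-sided quasi-likelihood F test, prior count 0.125, adjusted p under 0.05 over all genes of a class). A standard error is the size of the log2 difference over the square root of F. CPM are per total UMIs of a sum. UMIs at the 3′ end do not scale with transcript length, and levels of different genes were not compared. Intervals of shares and floors of 3 counts cover counting error only. On simulated counts for the astrocyte-like comparison (10983 genes), 37 of 95 genes changed 2-fold and 90 of 95 changed 4-fold were recovered, with 8 others called. Gene positions are from GENCODE vM21 (GRCm38).

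Alternatives were RLE factors, DESeq2 1.42.0, 2 other count filters, a prior count of 2, a replicate block, each library left out, doublets kept, Leiden names (scanpy 1.11.5), more than 200 genes, thinned sums, the largest subcluster, nuclei free of other classes' markers and, added after seeing the data, no subcluster 2, subclusters 0 and 1 alone, and a fixed mix of subclusters. The members and lists were chosen with earlier results of these data known. Genes named are the members, *Sel1l*, at most 4 called genes of each list and the 3 genes most like a member; other genes were named after their values were seen.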

Additional observations from a re-analysis of the deposited data

Results flagged for a closer look

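The Cre transgene had 415 UMIs in the library labelled Sel1L flox/flox replicate 1, a label under which no Cre is listed, and was picked out because this feature enters no comparison above. The other library of that label had 0 and the 2 libraries labelled Sel1L Syn-Cre had 234 and 217. What this means for the genotype of that mouse was not tested.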

How the results depend on the processing

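No member was called in astrocyte-like nuclei under any of the 17 alternatives with a test, where the lowest adjusted p was 0.256, for *Cd44* with no filter on low counts, though DESeq2 gave no adjusted p for *Vim*, *C4b* and *S100a6*. The count of 80 genes called in the class went to 340 with no filter, 4 in the largest subcluster alone and 48 in subclusters 0 and 1 alone, and ranged from 24 to 329 with 1 library left out (24 without Sel1L flox/flox replicate 1, 235 without replicate 2, 329 without Sel1L Syn-Cre replicate 1 and 180 without replicate 2). With fewer nuclei and genes, the subcluster fits also have fewer counts. *Fkbp5* was called under all of these. List genes called went from 1 to 3 with no filter (*Gja1* and *Gjb6* added) and ranged from 1 to 2 with 1 library left out (*Gjb6* added without Sel1L flox/flox replicate 2 or Sel1L Syn-Cre replicate 2, *Plec* without Sel1L Syn-Cre replicate 1). Members called in other classes went from 0 to 1 with no filter, with the replicate block (both *Vim* in excitatory neuron-like nuclei, adjusted p = 0.0329 with the block in edgeR) and with names made without integration (*Stat3* in *Pvalb* interneuron-like nuclei), and to 0 in each fit with 1 library left out. Names made without integration gave no *Sst* class, so the *Pvalb* class of that setting may hold *Sst* nuclei too. The labels give no batch shared by same-numbered libraries, which deviated together by r = 0.0913 over 11085 genes with 2 pairs only. The replicate block gave 108 called genes in astrocyte-like nuclei and log2 differences of 0.47 for *Gfap* and 0.68 for *C4b*. Of 6 members, *Stat3* changed sign (from -0.14 without Sel1L Syn-Cre replicate 2 to 0.30 without Sel1L Syn-Cre replicate 1, -0.039 in the largest subcluster alone, -0.11 in nuclei without other classes' markers), as did *S100a6* with names made without integration (0.042) and the share of nuclei with *Serpina3n* (-0.0673 points at 1000 UMIs). All were uncalled, and the causes were not tested. Over alternatives the log2 difference ranged from 0.21 to 0.82 for *Gfap*, 0.47 to 1.08 for *C4b*, 0.14 to 0.68 for *Vim*, 0.042 to 0.34 for *Aqp4*, -1.40 to 0.042 for *S100a6* (lowest in the largest subcluster alone, edgeR adjusted p = 0.594) and -2.23 to -0.71 for *Cd44*, which 7 alternatives tested. In a fixed mix of subclusters the log2 ratio of means was -0.01 for *Vim*, 0.36 for *C4b* and -0.29 for *Serpina3n*.

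Depth limits the low members most: *Lcn2*, *Serpina3n*, *Cd44* and *Osmr* had too few UMIs to pass the filter. The intervals of *Vim* and *S100a6* include both a rise and a fall, as do those of *Stat3* and *Aqp4*, which had more UMIs. There are 2 mice per label, and a fit with 1 library left out assumes that the lone mouse varies like the others.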

Other observations

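*Fkbp5*, the 1 gene of the fixed lists that was called in astrocyte-like nuclei, was also called in microglia-like nuclei, at 190 and 316 CPM in Sel1L flox/flox and 916 and 1236 CPM in Sel1L Syn-Cre (log2 2.05 ± 0.22, edgeR adjusted p = 0.0266), and in oligodendrocyte-like nuclei, at 28.2 and 72.8 against 282 and 532 CPM (log2 2.997 ± 0.40, edgeR adjusted p = 0.00935). It was called in OPC-like (log2 1.25 ± 0.19) and excitatory neuron-like nuclei (log2 1.27 ± 0.16) as well, with edgeR adjusted p-values of 8.76e-06 and 0.0247. In DG granule neuron-like nuclei it was at 117 and 114 against 108 and 139 CPM (log2 0.04 ± 0.13, edgeR adjusted p = 0.939).

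The 4 genes with the lowest p in astrocyte-like nuclei were *Fkbp5* and, in none of the fixed lists and named after their values were seen, *Zfhx3*, *Phyhd1* and *Vcan*. The transcription factor *Zfhx3* was at 78.2 and 87.3 CPM in Sel1L flox/flox and at 427 and 683 CPM in Sel1L Syn-Cre (log2 2.74 ± 0.23, edgeR adjusted p = 0.000343), and *Phyhd1* at 31.2 and 55.1 against 234 and 264 CPM (log2 2.60 ± 0.24, edgeR adjusted p = 0.000657). *Vcan*, a proteoglycan of the extracellular matrix that binds hyaluronan as the product of *Cd44* does, fell from 103 and 73.9 to 14.4 and 19.3 CPM (log2 -2.46 ± 0.26, edgeR adjusted p = 0.00130). OPC markers in the same sums were at 111 and 95.4 against 61.7 and 59.1 CPM and did not overlap between labels. Both Sel1L Syn-Cre libraries were likewise below in 21.4% of all genes tested. The part of OPC markers in the *Vcan* difference was not tested.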
